A study of Mus musculus with 20 samples.

Results

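The 40 genes described here encode the carriers and enzymes that take glucose to lactate (25 genes), the phosphoglucomutases that join glycolysis to glycogen (2), the enzymes of the pentose phosphate pathway (7) and a set of oxygen-response genes (6). They were chosen by symbol, as named members of these pathways, and not by a cutoff on measured values, but with earlier results of these data known. They account for 41 of the 21963 entries of the count table, because Aldoa is listed in duplicate, and all 40 were among the 11707 genes that passed the filter on low counts. The Aldoa entry used held 18394 to 48616 counts per library and the other at most 13.

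RNA was sequenced from bone marrow-derived macrophages (BMDMs), which are macrophages grown from mouse marrow in medium that supplies a macrophage growth factor. WT macrophages were left untreated (4 libraries), given zymosan for 3 h at 2 particles per cell (5) or given zymosan with 10 uM BAPTA-AM (4). Mcu-/- macrophages were untreated (4) or given zymosan (3). All mice were young. The Mcu-/- macrophages came from mice with a floxed Mcu gene and a Cre driven by Cx3cr1, a gene of monocytes and macrophages, so any cell in which Cre did not act kept the gene. Zymosan is a preparation of yeast cell wall that is sensed through Dectin-1 and Toll-like receptor 2. BAPTA-AM is a cell-permeant Ca2+ chelator, and Mcu encodes the pore of the mitochondrial Ca2+ uniporter, so the design asks how these responses depend on Ca2+ in the cytosol and in mitochondria. Normalized counts below are counts scaled for library size and composition. A gene is said to have risen or fallen, or to be called, where the Benjamini-Hochberg adjusted p of edgeR's quasi-likelihood test over all genes tested was under 0.05.

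Total counts were 14.4 to 24 M per library. Normalized counts of Mcu itself were 126 to 197 among 13 WT libraries and 54.2 to 83.4 among 7 Mcu-/- libraries, so no library went against its genotype label. Untreated Mcu-/- replicate 4 stood apart from replicates 1 to 3, as the chi-square of its counts against theirs averaged 212 to 220 per gene, while 28 further replicate pairs gave 1.60 to 6.33. Leaving it out lowered the biological coefficient of variation from 12.4% to 3.56%, and results are therefore given with all 20 libraries and without it. All 10 macrophage markers were detected in every group. Of the markers of other cells, the T and NK cell list summed to at most 0.509 counts per 1 M (CPM) and the mast cell and basophil list to at most 0.155 and the erythroid list to at most 0.712, with Cd8a, Ncr1 and Fcer1a at 0 throughout.

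Glycolysis breaks glucose down to pyruvate in the cytosol, and lactate dehydrogenase and the monocarboxylate transporters let cells keep doing so by reducing pyruvate and exporting the lactate. The pentose phosphate pathway leaves it at glucose 6-phosphate, makes NADPH in its oxidative branch, and returns sugars through its non-oxidative branch. Hypoxia-inducible factor 1 alpha (Hif1a) is held low by prolyl hydroxylases (the Egln genes) when oxygen is present, and it drives many genes of glucose uptake and glycolysis. Activated macrophages are known for a switch to high glucose use.

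In untreated WT macrophages the genes spanned a wide range of levels, compared here as normalized counts per kilobase (kb) of exon. Among the genes placed on this scale, which leaves out Aldoa, Gapdh was highest with 6212 to 6896 per kb. It is the dehydrogenase at the centre of glycolysis. Pkm, pyruvate kinase, followed with 5472 to 6014. Pgk1 (4110 to 4280 per kb) and Ldha (2931 to 3048) came next, and none of these neighbours overlapped. Taldo1 (1885 to 1967 per kb) and Eno1 (1769 to 1978) overlapped. Eno2, the enolase of neurons, was lowest with 2.70 to 4.50 per kb, below the HIF target Adm (13.6 to 18.6) and the glucose transporter Slc2a3 (18.8 to 25.7). Aldoa, which the annotation also holds in duplicate, was left out of this scale. Its longer entry has 2911 exon bases, against 4133 for Gapdh. With 21272 to 22674 normalized counts, against 25674 to 28502 for Gapdh, Aldoa would stand above Gapdh by that length. Reads that genes such as Gapdh, Aldoa and Eno1 share with processed pseudogenes or near copies were not resolved, and Pgm1 and Pgm2 name each other's gene in some annotation releases, so it was not settled which is meant. Together the 40 genes took 1.03% to 1.09% of all counts in untreated WT libraries and 1.02% to 1.06% with zymosan. Their share was 1.15% to 1.21% with BAPTA-AM and 1.48% to 1.52% in Mcu-/- macrophages with zymosan.

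**Figure D1:**
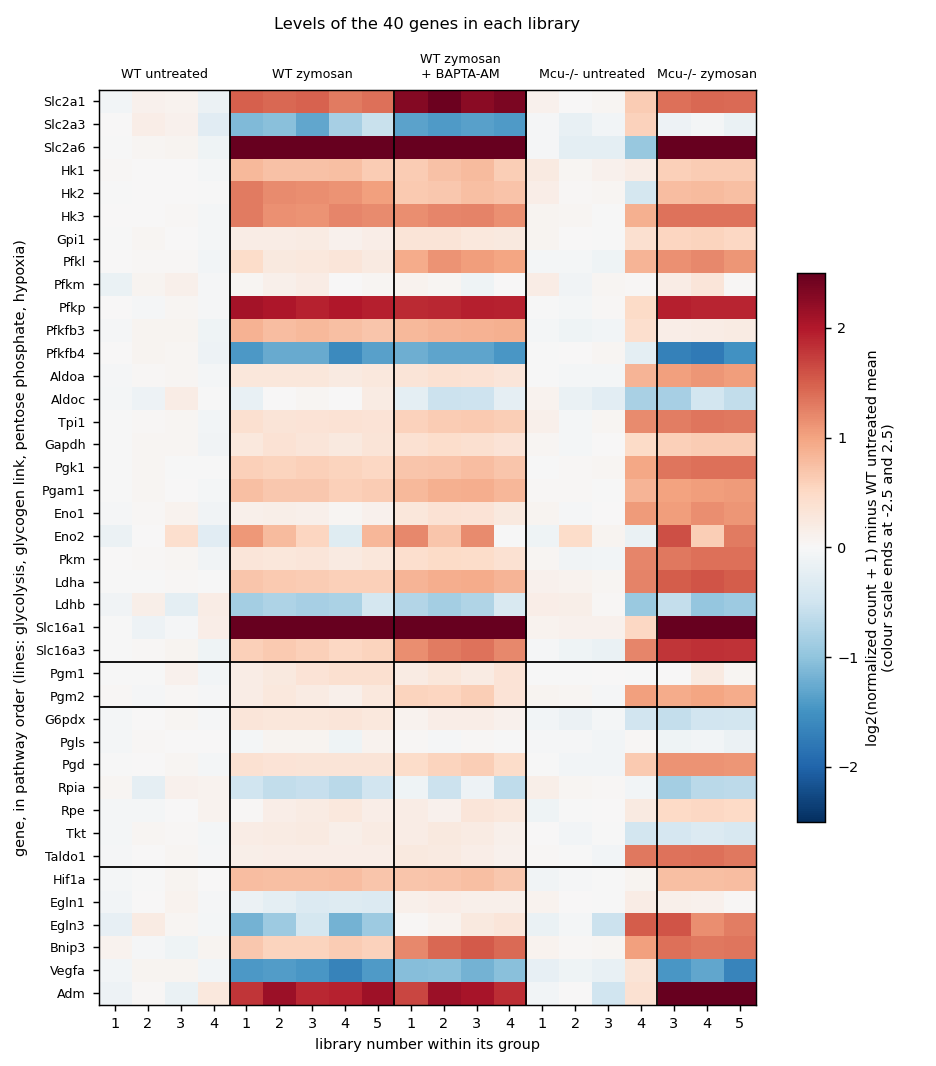
Each row is a gene and each column a library, numbered within its group. Colour is log2(normalized count + 1) minus the mean of the WT untreated libraries, red above and blue below it. The Slc2a6, Slc16a1 and Adm rows are among the reddest with zymosan, and the column of untreated Mcu-/- replicate 4 differs from those of replicates 1 to 3.

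Zymosan raised 14 of the 25 glycolysis genes and lowered 3 in WT macrophages, with the largest rises of the 40 genes in Slc2a6 and Slc16a1. Of the 40 genes, 22 rose and 7 fell, against 32.4% and 36.8% of all genes tested. Without untreated Mcu-/- replicate 4, 30 rose and 7 fell, against 37.2% and 41.3%. The median log2 fold change of the 40 was 0.30 and that of all genes tested was -0.04. The WT libraries with and without zymosan did not overlap for 27 genes that were higher and 7 that were lower, against 33.1% and 36.4% of genes tested.

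Slc2a6 (chromosome 2 of mm10, 27021363 to 27027998), a glucose transporter family member found on lysosomes, had 225, 233, 237 and 210 normalized counts in the untreated WT libraries. With zymosan it had 4585, 4450, 4419, 4447 and 4323. Every stimulated library was far above every untreated one, and the log2 fold change was 4.29 (SE 0.12, 19.6-fold, adjusted p from edgeR = 1.02e-16), the largest among the 40 genes.

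Slc16a1 (chromosome 3, 104638668 to 104658462) encodes the monocarboxylate transporter MCT1, which moves lactate and pyruvate either way. It had 240, 223, 236 and 272 normalized counts untreated and 2299, 2139, 2130, 2190 and 1956 with zymosan. The groups did not overlap, and the log2 fold change was 3.15 (SE 0.08, 8.85-fold, adjusted p from edgeR = 9.47e-17). Slc16a3, which encodes the lactate exporter MCT4, rose by only 0.58 on the log2 scale (SE 0.20, adjusted p from edgeR = 0.0162).

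Slc2a1 (chromosome 4, 119108711 to 119137983), the main glucose transporter GLUT1, had 1531, 1723, 1695 and 1451 normalized counts untreated and 4469, 4299, 4417, 3918 and 4155 with zymosan. It rose 2.66-fold (log2 fold change 1.41, SE 0.10, adjusted p from edgeR = 3.29e-10), with no overlap. The third glucose transporter, Slc2a3 (GLUT3), fell by 0.97 (SE 0.16, adjusted p from edgeR = 1.93e-05).

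All 3 hexokinases, which trap glucose in the cell, rose (log2 fold change 0.73 for Hk1, 1.16 for Hk2 and 1.20 for Hk3). Of the phosphofructokinase 1 genes, Pfkp rose 3.99-fold (log2 fold change 1.99, SE 0.08, adjusted p from edgeR = 8.37e-14) while Pfkl (0.30) and Pfkm (0.08) were not called. Of the enzymes that set fructose 2,6-bisphosphate, the activator of that step, Pfkfb3 rose (0.78) and Pfkfb4 fell (-1.38). Pfkl was called without untreated Mcu-/- replicate 4 at nearly the same value (0.30, adjusted p from edgeR = 4.21e-08).

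Among the remaining glycolytic enzymes the called rises were 0.17 to 0.66 on the log2 scale. Gapdh (chromosome 6, 125161715 to 125166467) had 27173, 28502, 28501 and 25674 normalized counts untreated and 33082, 35014, 33711, 32689 and 34264 with zymosan. The groups did not overlap, but the log2 fold change was only 0.30 (SE 0.08, adjusted p from edgeR = 0.00221). Pgk1 (0.57), Pgam1 (0.66) and Ldha (0.63) rose, and Gpi1 rose slightly (0.17). Aldoa (0.26), Tpi1 (0.35), Eno1 (0.11), Eno2 (0.64) and Pkm (0.28) were not called with all libraries and were called without untreated Mcu-/- replicate 4. Ldhb, the lactate dehydrogenase subunit of oxidative tissues, fell by 0.74 on the log2 scale (adjusted p from edgeR = 0.00151). The call of Gpi1 was lost without WT untreated replicate 4 (adjusted p from edgeR = 0.0691), and that of Rpe in the pentose phosphate pathway without WT untreated replicate 2 (0.0512).

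The pentose phosphate genes shifted little. G6pdx (0.28) and Pgd (0.34), the NADPH-producing dehydrogenases, rose, as did Rpe (0.17) and Tkt (0.19), while Rpia fell by 0.57. Pgls (0.02) and Taldo1 (0.16) were not called. Of the oxygen-response genes, Hif1a rose by 0.75 (SE 0.04, adjusted p from edgeR = 1.22e-12).

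Adm (chromosome 7, 110627661 to 110629820), which encodes the vasodilator peptide adrenomedullin, had 22.9, 25.4, 22.1 and 30.1 normalized counts untreated and 88.1, 113, 94.6, 97.1 and 111 with zymosan. It rose 4.03-fold (log2 fold change 2.01, SE 0.16, adjusted p from edgeR = 1.21e-09) and the groups did not overlap. Bnip3, a mitochondrial protein of mitophagy, had 645, 592, 565 and 634 normalized counts untreated and 975, 895, 898, 948 and 909 with zymosan (log2 fold change 0.60, adjusted p from edgeR = 0.00183).

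Other oxygen-response genes went the opposite way. Vegfa, the vascular growth factor, fell to 0.36 times its untreated level (log2 fold change -1.48, SE 0.10, adjusted p from edgeR = 1.06e-10). Egln3 (chromosome 12, 54178981 to 54203860), a HIF prolyl hydroxylase, had 56.3, 75.2, 67.1 and 62.5 normalized counts untreated and 28.2, 34.1, 47.3, 28.2 and 34.3 with zymosan. The groups did not overlap. Its log2 fold change was -0.92 (SE 0.34, adjusted p from edgeR = 0.0223), a call lost without WT untreated replicate 2 (adjusted p from edgeR = 0.0562), and Egln1 fell by 0.28.

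**Figure D2:**
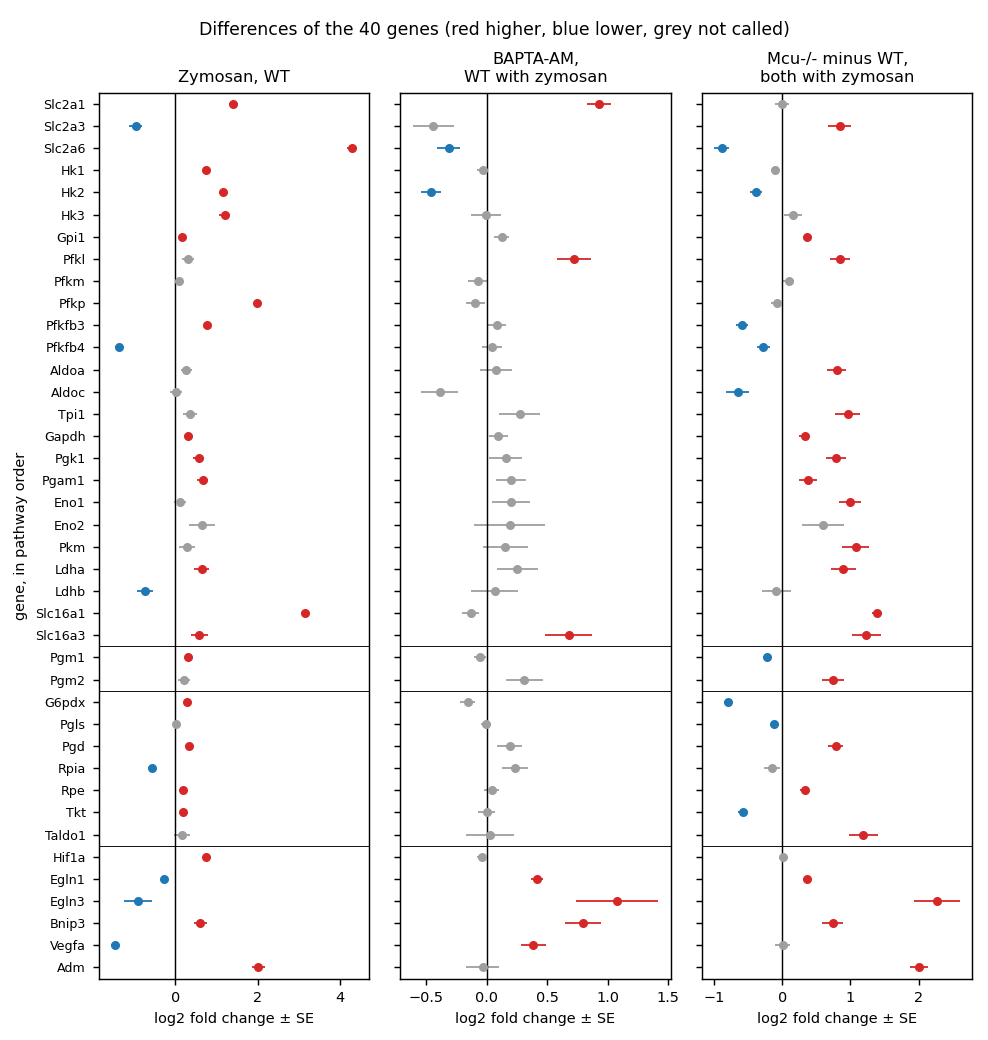
Points give each gene's log2 fold change with its SE in 3 comparisons, in pathway order from glucose uptake at the top to the oxygen-response genes, with a separate horizontal scale in each panel. Red was called higher, blue called lower and grey was not called. The left panel reaches 4.29 for Slc2a6. In the right panel 21 of 40 points are red.

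BAPTA-AM raised Slc2a1, Pfkl, Slc16a3 and 4 of the 6 oxygen-response genes, and lowered Hk2 and Slc2a6. Against zymosan alone, 7 of the 40 genes were higher and 2 lower, where 6.43% and 6.33% of all genes tested were called. Without untreated Mcu-/- replicate 4, which takes no part in this contrast but enters the common estimate of spread, 18 were higher and 7 lower, against 15.3% and 16.5%. Groups did not overlap for 17 genes that were higher and 5 that were lower, against 11.1% and 13.2% of genes tested. Of the 6 oxygen-response genes 4 were called higher, of the 25 of glycolysis 3, and of the 7 of the pentose phosphate pathway 0, although without untreated Mcu-/- replicate 4 the same edgeR test called 12 of the 25 higher and, of those 7, 1 higher and 1 lower.

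Slc2a1 was the clearest case in glycolysis. It had 7801, 8704, 7659 and 8147 normalized counts with BAPTA-AM, each above all 5 libraries with zymosan alone, which reached 4469. The log2 fold change was 0.93 (SE 0.10, 1.90-fold, adjusted p from edgeR = 3.52e-06), on top of the rise with zymosan itself. The other glycolytic genes called higher were Pfkl (0.72, SE 0.14, adjusted p from edgeR = 0.00183) and Slc16a3 (0.68, SE 0.20, adjusted p from edgeR = 0.0296).

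Egln3 had 66.0, 68.6, 77.3 and 80.3 normalized counts with BAPTA-AM, against 28.2 to 47.3 with zymosan alone and 56.3 to 75.2 untreated. Those values overlap the untreated range and lie above every library with zymosan alone. The log2 fold change was 1.08 (SE 0.34, 2.11-fold, adjusted p from edgeR = 0.0450). The call was lost under 16 of 25 alternatives, with an adjusted p of at most 0.103, among them the fit without any WT library other than zymosan replicate 3 and without any Mcu-/- zymosan library. Without untreated Mcu-/- replicate 4 the adjusted p from edgeR was 2.68e-06.

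Bnip3 (chromosome 7, 138890836 to 138909519) had 1400, 1646, 1762 and 1628 normalized counts with BAPTA-AM and at most 975 without it. It rose 1.74-fold (log2 fold change 0.80, SE 0.15, adjusted p from edgeR = 0.00128), and the groups did not overlap. Egln1 rose by 0.41 (SE 0.05, adjusted p from edgeR = 1.53e-05) and Vegfa by 0.39 (SE 0.10, adjusted p from edgeR = 0.0170). Vegfa and Egln1 had both fallen with zymosan alone. Hif1a (-0.04) and Adm (-0.03) were not called.

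The genes called lower with BAPTA-AM were Hk2 (log2 fold change -0.46, SE 0.08, adjusted p from edgeR = 0.000908) and Slc2a6 (-0.32, SE 0.09, adjusted p from edgeR = 0.0341). Slc2a6 had 3605, 3690, 3525 and 3459 normalized counts with BAPTA-AM, below all 5 libraries with zymosan alone and still far above the untreated ones. Slc16a1, with 1888, 1962, 1932 and 2025, overlapped the libraries with zymosan alone (log2 fold change -0.13). The calls of Slc2a6 and Slc16a3 did not hold when single libraries of the comparison were left out. Slc2a6 lost its call without any WT library given zymosan, with or without BAPTA-AM (adjusted p from edgeR up to 0.0921). Slc16a3 lost it without WT zymosan replicate 1, 3, 4 or 5 or BAPTA-AM replicate 2, 3 or 4 (up to 0.0729), and Vegfa without BAPTA-AM replicate 4 (0.0503). Without BAPTA-AM replicate 4, 4 of the 40 genes were higher.

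**Figure D3:**
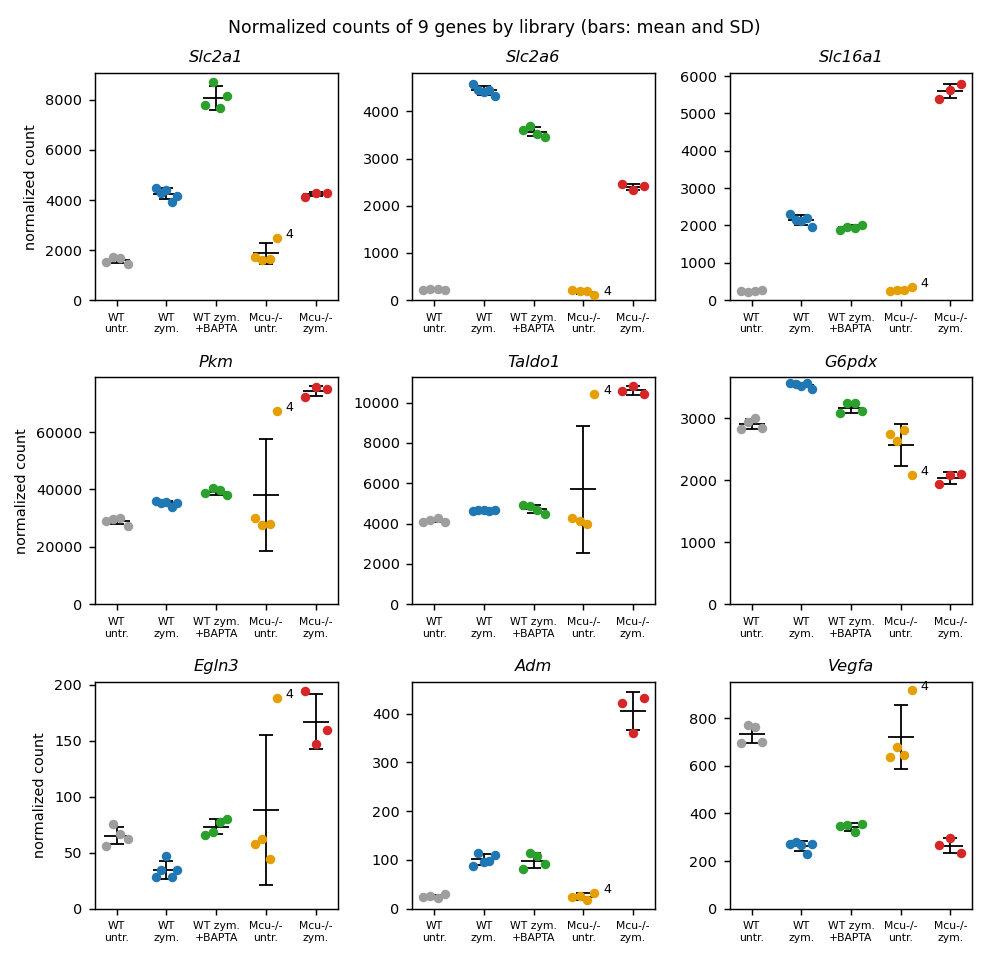
Points are normalized counts of 9 genes in each library, with the mean and SD of each group in black. The number 4 marks untreated Mcu-/- replicate 4. Slc2a1 is highest with BAPTA-AM and Slc16a1 and Adm in Mcu-/- macrophages with zymosan, while for Pkm, Taldo1 and Egln3 the point marked 4 lies near the Mcu-/- zymosan libraries.

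Mcu-/- macrophages with zymosan had higher levels of most enzymes from aldolase to lactate dehydrogenase than WT macrophages with zymosan, of both monocarboxylate transporters and of the oxygen-response genes Egln3, Adm and Bnip3, and lower levels of G6pdx and Tkt. Of the 40 genes, 21 were higher and 9 lower, against 31.8% and 30.3% of all genes tested. Without untreated Mcu-/- replicate 4 the counts were 22 and 11, against 36.4% and 33.7%. The median log2 fold change was 0.35 over the 40 genes and 0.02 over all genes tested. Groups did not overlap for 22 genes that were higher and 6 that were lower, against 33.1% and 30.9%.

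Several other measures set the 3 Mcu-/- zymosan libraries apart from all 13 WT libraries, and, except for the dendritic cell markers, untreated Mcu-/- replicate 4 as well. Mitochondrially encoded genes took 0.499% to 0.621% of their counts and 0.555% in replicate 4, against 1.15% to 1.55% in WT libraries and 1.30% to 1.48% in untreated Mcu-/- replicates 1 to 3. The 5 proliferation markers were all lower and summed to 52.5 to 64.1 CPM and 52.7 in replicate 4, against 326 to 451 in WT libraries. Of the 10 macrophage markers 5 were higher and 4 lower, and the list summed to 11000 to 11400 CPM and 9070 in replicate 4, against 13800 to 16900. The 6 fibroblast and stroma markers summed to 44.0 to 52.3 CPM and 28.3 in replicate 4, against 2.67 to 6.68. All 3 tested (Col1a1, Col1a2 and Col3a1) were higher. The untested ones had few counts everywhere. Mean normalized counts in WT and Mcu-/- zymosan libraries were 2.6 and 2.29 for Pdgfra, 1.35 and 5.89 for Dcn and 0.771 and 0 for Lum. Neutrophil markers summed to 0.547 to 0.765 CPM and 0.159 in replicate 4, against 2.65 to 5.92, with all 3 tested lower. B cell markers summed to 13.0 to 13.6 CPM and 18.8 in replicate 4, against 30.8 to 55.8, with 1 of 5 tested lower. Dendritic cell markers, 2 of them tested and neither called, summed to 10.7 to 11.9 CPM and 0.913 in replicate 4, against 0.810 to 10.0 in WT libraries. The part of these differences in the results on the 40 genes was not tested, and fewer cells of a type and less RNA per cell cannot be told apart in bulk RNA.

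Adm had 422, 360 and 433 normalized counts in Mcu-/- macrophages with zymosan, against 88.1 to 113 in WT. The log2 fold change was 2.01 (SE 0.13, 4.02-fold, adjusted p from edgeR = 1.39e-09). Slc16a1 had 5393, 5635 and 5779, against 1956 to 2299 in WT, a log2 difference of 1.39 (SE 0.08, 2.61-fold, adjusted p from edgeR = 1.11e-10). For both genes the groups did not overlap.

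Egln3 had 194, 147 and 160 normalized counts, above all WT libraries with zymosan and above the untreated ones. The log2 fold change was 2.27 (SE 0.34, 4.82-fold, adjusted p from edgeR = 2.25e-05), the largest of the 40 genes in this comparison. Bnip3 had 1578, 1518 and 1529 and was higher by 0.74 (SE 0.16, adjusted p from edgeR = 0.000683), and Egln1 by 0.36. Hif1a (0.02) and Vegfa (0.00) were not called, with Vegfa at 267, 296 and 232 against 228 to 279 in WT. The hydroxylases and Bnip3 were called higher and Hif1a RNA was not, and RNA counts do not show the level or activity of the HIF protein.

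Pkm had 72119, 75554 and 75130 normalized counts against 34041 to 35906 in WT, which was a difference of 1.08 on the log2 scale (SE 0.20, 2.11-fold, adjusted p from edgeR = 0.000144). Eno1 (0.99), Tpi1 (0.96), Ldha (0.90), Aldoa (0.80), Pgk1 (0.79), Pgam1 (0.38), Gapdh (0.33) and Gpi1 (0.37) were also higher. Gapdh had 41744, 42782 and 42650. Eno2 (0.60) and Ldhb (-0.09) were not called. Slc16a3 was higher by 1.23 (SE 0.21, adjusted p from edgeR = 7.47e-05).

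Other glycolytic genes were called in both directions. Slc2a3 (0.84) and Pfkl (0.84) were higher, while Slc2a6 (-0.89), Hk2 (-0.39), Pfkfb3 (-0.60), Pfkfb4 (-0.28) and Aldoc (-0.65) were lower. Slc2a6 had 2458, 2327 and 2410 normalized counts, below every WT library with zymosan (log2 fold change SE 0.11, 0.54 times the WT level, adjusted p from edgeR = 1.98e-06). Slc2a1, with 4132, 4292 and 4287, lay within the WT range and was not called (0.00, SE 0.11).

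The pentose phosphate pathway was split as well. G6pdx, its entry enzyme, had 1931, 2090 and 2102 normalized counts against 3474 to 3568 in WT, a log2 difference of -0.79 (SE 0.07, adjusted p from edgeR = 5.10e-08). The transketolase Tkt was lower by 0.58 on the log2 scale (SE 0.08, adjusted p from edgeR = 5.30e-06). The next enzyme of the oxidative branch, Pgd, was higher by 0.78 (SE 0.11, adjusted p from edgeR = 1.42e-05), and Taldo1, transaldolase, by 1.19 (SE 0.21, adjusted p from edgeR = 0.000101). Rpe was higher (0.33), Pgls slightly lower (-0.12) and Rpia not called (-0.15). Pgm2 was higher (0.74) and Pgm1 lower (-0.22). The calls of Pgls, Pgam1 and Pfkfb4 were lost when single libraries were left out, with adjusted p from edgeR up to 0.118, 0.0588 and 0.0848. For Pgls these were WT zymosan replicate 2, 3 or 5 and Mcu-/- zymosan library 3 or 5, for Pgam1 Mcu-/- zymosan library 4 or 5, and for Pfkfb4 library 3 or 4.

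Without zymosan no difference between the genotypes was called in these genes. By edgeR's test 0 of 40 were called higher and 0 lower, against 0.128% and 0.222% of all genes tested. At an unadjusted p under 0.05 there were 13, of which 11 were higher and 2 lower, and DESeq2 called 0. Without untreated Mcu-/- replicate 4, 0 were called, against 1.53% and 1.83% of genes tested, and 5 had an unadjusted p under 0.05. The share of all genes tested with an unadjusted p under 0.05 was not computed, so these unadjusted counts have nothing to be read against. The median log2 fold change over the 40 genes was 0.12 with replicate 4 and -0.005 without it. Libraries did not overlap for Hk1 and Ldha, which were higher (log2 fold change 0.14 and 0.47), and for G6pdx, which was lower (-0.18), where 3.38% and 3.71% of genes tested did not overlap in these directions. Relative to the WT untreated mean, log2 levels in replicates 1 to 4 were 0.11, 0.09, 0.05 and 1.24 for Ldha. They were -0.08, -0.14, -0.05 and -0.48 for G6pdx and 0.23, 0.04, 0.10 and 0.19 for Hk1.

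Single libraries differed more than the groups did. Relative to the WT untreated mean, the 21 genes called higher in Mcu-/- macrophages with zymosan had median log2 levels of 0.04, -0.01 and -0.02 in untreated Mcu-/- replicates 1 to 3 and of 0.86 in replicate 4, beside a median log2 fold change of 0.84 with zymosan. In replicate 4, 21 of these 21 genes lay above every WT untreated library, against 6, 2 and 3 in replicates 1 to 3. Of the 9 genes called lower with zymosan, 6 lay below every WT untreated library in replicate 4, and 1, 5 and 4 in the others. Over all genes tested, 81.8% of those higher and 77.6% of those lower in Mcu-/- macrophages with zymosan were past the WT untreated libraries in replicate 4, and 22.4% to 24.5% in replicates 1 to 3.

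In replicate 4 the genes that zymosan raised most were not near their levels in the Mcu-/- zymosan libraries, unlike several enzymes. Pkm had 67274 normalized counts there, against 27470 to 29947 in replicates 1 to 3. Taldo1 had 10404 against 3985 to 4269, and Egln3 188 against 44.4 to 62.3. Slc2a6, in contrast, had 117 and Slc16a1 348, against 2327 to 2458 and 5393 to 5779 in the Mcu-/- zymosan libraries, and Adm had 32.7 against 360 to 433. Replicate 4 was therefore near the stimulated Mcu-/- libraries for enzymes such as Pkm and Taldo1. For Slc2a6, Slc16a1 and Adm it was nearer to untreated than to stimulated libraries. It still lay below every WT untreated library for Slc2a6 (210 to 237). For Slc16a1 (223 to 272) and Adm (22.1 to 30.1) it lay above every WT untreated library. The label calls this library untreated, and it was kept so.

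**Figure D4:**
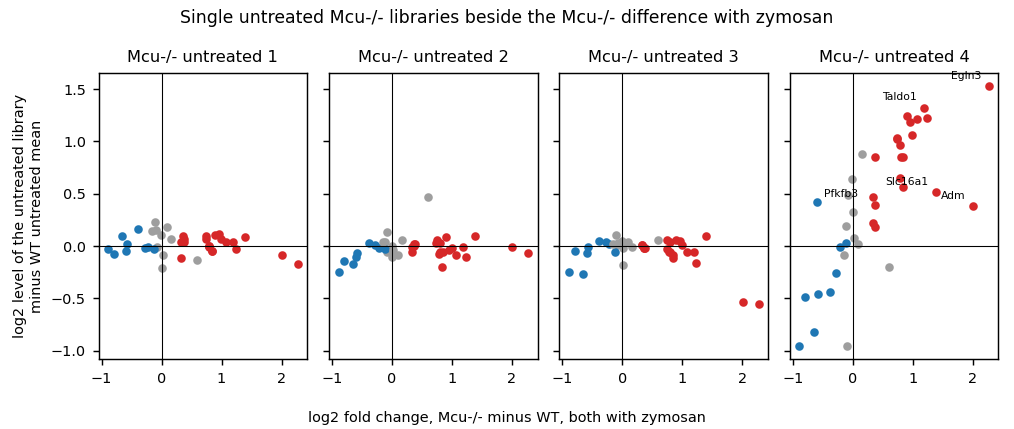
Each panel is an untreated Mcu-/- library and each point a gene. The horizontal axis is the log2 fold change of Mcu-/- against WT with zymosan and the vertical axis the log2 level in that library minus the WT untreated mean. Red genes were called higher with zymosan, blue lower and grey neither. Points lie near 0 in replicates 1 to 3 and rise with the horizontal axis in replicate 4, with Adm and Slc16a1 below the other red points at their place on that axis.

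Within Mcu-/- macrophages, 27 of the 40 genes were called higher with zymosan and 6 lower, against 34.3% and 39.4% of all genes tested. Without untreated replicate 4, 28 rose and 7 fell, against 39.2% and 42.4%. The groups did not overlap for 24 genes that were higher and 4 that were lower, against 29.8% and 31.9%. The median log2 fold change of the 40 was 0.77, and 0.97 without replicate 4. Normalized counts in untreated Mcu-/- replicates 1 to 4 were 222, 191, 190 and 117 for Slc2a6. They were 257, 259, 259 and 348 for Slc16a1 and 23.6, 24.9, 17.3 and 32.7 for Adm. All lay far below the Mcu-/- zymosan libraries given above. Slc16a1 rose 19.97-fold (log2 fold change 4.32, SE 0.09, adjusted p from edgeR = 3.61e-18), Adm 16.4-fold (4.04, SE 0.16, adjusted p from edgeR = 5.23e-14) and Slc2a6 13.3-fold (3.73, SE 0.12, adjusted p from edgeR = 1.88e-15). Pkm rose by 0.96 (adjusted p from edgeR = 0.000429), or by 1.39 without untreated replicate 4, and Taldo1 by 0.90, or by 1.36. For some genes untreated replicate 4 was already near the libraries with zymosan. It had 10404 normalized counts of Taldo1, against 10409 to 10834 with zymosan, and 1252 of Pgm2, against 1172 to 1225. The part of this library difference in these rises was not tested. Egln3 rose by 0.93 (adjusted p from edgeR = 0.0168), and by 1.60 without replicate 4. That call was lost without untreated Mcu-/- replicate 1, 2 or 3 and without zymosan library 3 (0.0511 to 0.0665), and was not made from these groups alone (0.122). The genes that fell were Pfkfb4 (-1.61), Vegfa (-1.45), Rpia (-0.76), Ldhb (-0.74), G6pdx (-0.33) and Tkt (-0.27). From these groups alone Ldhb (adjusted p from edgeR = 0.0703), G6pdx (0.0549) and Tkt (0.129) were not called.

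By the interaction test, the change from untreated to zymosan libraries differed between the genotypes for 19 of the 40 genes. It was more positive in Mcu-/- macrophages for 12 genes and more negative for 7, against 15.2% and 20% of all genes tested. Without untreated Mcu-/- replicate 4, these were 22 and 9, against 31.0% and 29.3%. Of the 21 genes called higher in Mcu-/- macrophages with zymosan, 21 already lay above every WT untreated library in untreated replicate 4. In untreated replicates 1 to 3 these were 6, 2 and 3. The part of this difference among untreated libraries in the interaction was not tested, with or without replicate 4. The largest differences were in Adm (log2 difference 2.03, SE 0.23, adjusted p from edgeR = 3.70e-06), Egln3 (1.84, SE 0.47, adjusted p from edgeR = 0.00619) and Slc16a1 (1.17, SE 0.12, adjusted p from edgeR = 7.15e-07). Egln3 fell with zymosan in WT macrophages and rose in Mcu-/- macrophages, where its untreated libraries had 57.9, 62.3, 44.4 and 188 normalized counts and the last overlapped those with zymosan.

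Further genes with a more positive response in Mcu-/- macrophages were Slc16a3 (0.87), Slc2a3 (0.75), Eno1 (0.64), Pfkl (0.62), Pgd (0.62), Aldoa (0.56), Rpe (0.30), Egln1 (0.29) and Gpi1 (0.25), as log2 differences. The response was more negative for Pfkfb3 (-0.66), G6pdx (-0.61), Slc2a6 (-0.56), Tkt (-0.46), Hk2 (-0.36), Hk1 (-0.25) and Pgm1 (-0.21). G6pdx and Tkt rose with zymosan in WT macrophages and fell in Mcu-/- macrophages, the falls being lost from the groups of that contrast alone as given above. Untreated Mcu-/- replicate 4 already had 2077 normalized counts of G6pdx, against 1931 to 2102 in Mcu-/- libraries with zymosan. For Tkt it had 6330, below the 6489 to 6833 of those libraries. Pkm (0.68) and Taldo1 (0.74) were not called with all libraries and were called without replicate 4 (1.11 and 1.20). Leaving out Mcu-/- untreated replicate 1, 2 or 3 or Mcu-/- zymosan library 3 or 4 left 7 genes with a more positive response. Over 24 alternatives the call was lost for Gpi1 in 20, Eno1 in 18, Pgm1 in 18, Aldoa in 15, Hk2 in 10, Slc16a3 in 8 and Pfkl in 6, with an adjusted p from edgeR or DESeq2 of at most 0.139.

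Per kb of exon, the leading gene of a step changed with zymosan in WT macrophages for the glucose transporters, phosphofructokinase 1 and the monocarboxylate transporters. It changed for no other step compared. Not divided by length, Pfkp already led Pfkl in untreated WT libraries (1701 to 1817 normalized counts against 1306 to 1413). With zymosan Slc2a6 (4323 to 4585) and Slc2a1 (3918 to 4469) were then close, so these changes of leading gene depend on the exon lengths used. The share of each gene among the listed genes of its step was taken from normalized counts per kb. Slc2a1 made up a median of 83.1% of the 3 glucose transporters in untreated WT macrophages, and with zymosan 46.7%, as Slc2a6 went from 12.9% to 52.8%. With BAPTA-AM Slc2a1 was at 67.3% and Slc2a6 at 32.5%, and in Mcu-/- macrophages with zymosan they were at 61.3% and 37.6%. No library of untreated WT macrophages overlapped a library with zymosan for either gene.

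Among the phosphofructokinases Pfkp went from 33.2% to 62.2% with zymosan in WT macrophages and Pfkl from 52.0% to 30.3%. Pfkp was at 50.9% with BAPTA-AM and at 48.8% in Mcu-/- macrophages with zymosan. Among the lactate carriers Slc16a1 went from 26.3% to 68.3%, and was at 55.7% with BAPTA-AM and at 70.8% in Mcu-/- macrophages with zymosan. The hexokinases kept their order, with Hk3 at 64.1% untreated, 65.5% with zymosan, 71.5% with BAPTA-AM and 73.3% in Mcu-/- macrophages with zymosan. Pfkfb3 was at 81.6% of its pair untreated and at 94.9% with zymosan, and Ldha at 97.6% and 99.1% of the lactate dehydrogenase genes. These shares are descriptions without a test.

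**Figure D5:**
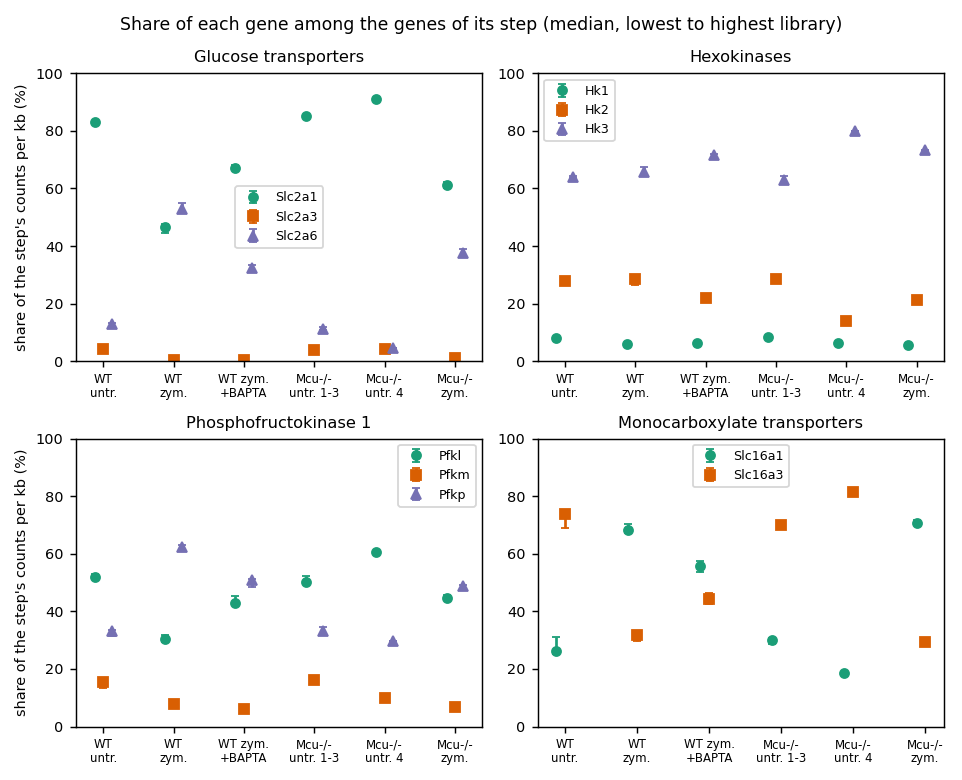
Points are the median share, in percent, of each gene among the listed genes of its step, from normalized counts per kb of exon, with bars from the lowest to the highest library. Untreated Mcu-/- replicate 4 is shown on its own. Slc2a6 passes Slc2a1, Pfkp passes Pfkl and Slc16a1 passes Slc16a3 with zymosan in WT macrophages, while Hk3 stays the largest hexokinase.

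The wider pathways were followed in 116 further genes of glycolysis, the pentose phosphate pathway, the HIF machinery and hypoxia targets, of which 94 were tested. With zymosan in WT macrophages 30 rose (31.9%) and 27 fell (28.7%), against 32.4% and 36.8% of all genes tested, among them the lipid droplet gene Hilpda (3.70), Hif3a (-4.21) and Zfp395 (-4.19), as log2 fold changes. The HIF partner Arnt2 was called higher at a mean of 7.81 normalized counts, against 0.22 untreated, too few for a fold change. With BAPTA-AM 8 were higher and 5 lower, against 6.43% and 6.33% of all genes, or 18 and 16 without untreated Mcu-/- replicate 4, against 15.3% and 16.5%, led by the adenylate kinase Ak4 (0.93) and the mitochondrial gene Fam162a (0.75), with Ddit4, an inhibitor of mTORC1 signalling, at -1.90 and Hilpda at -0.60. Of the 41 hypoxia targets tested, 7 were higher and 3 lower with BAPTA-AM, a count that became 12 and 8 without that library, to be read against the same shares of all genes.

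In Mcu-/- against WT macrophages with zymosan, 36 of these 94 genes were higher and 19 lower, against 31.8% and 30.3% of all genes tested. They were 45 and 22 without untreated Mcu-/- replicate 4, against 36.4% and 33.7%. The largest were Pdgfb (3.35), P4ha2 (2.50), Ndrg1 (-2.57) and Emb (-2.63), the last encoding a partner protein of monocarboxylate transporters. Without zymosan edgeR called 0, with 14 at an unadjusted p under 0.05, and without replicate 4 it called 1 lower. The share of all genes at that unadjusted threshold was not computed. Within Mcu-/- macrophages 38 rose and 32 fell with zymosan, against 34.3% and 39.4% of all genes, led by Cited2 (4.36), Mafk (3.54), Zfp395 (-4.15) and Hif3a (-3.97). The zymosan response differed between genotypes for 31 genes, 16 more positive and 15 more negative, against 15.2% and 20% of all genes, among them Pdgfb (2.61), Angptl4 (2.38), Ndrg1 (-2.23) and Gpr146 (-2.33). Without replicate 4 these were 36 and 20, against 31.0% and 29.3%.

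HIF binds DNA at a short core, ACGTG or GCGTG, known as the hypoxia response element. Promoter windows from RefSeq on GRCm38.p6, the build also called mm10, ran from 250 bases before to 50 after a gene's start, and 39 of the 40 genes had at least 1. Slc2a3 had none here. A core on either strand was present for 35 of these 39 genes (89.7%), for 46.7% of all 27025 genes with a window and for 67.8% of the 9233 tested genes with one. Among windows of at least 60% GC the core was found for 24 of 26 of these genes (92.3%) and for 74.6% of tested genes. Cores written CACGTG are also sites for other factors and were counted, and overlapping matches were merged. A match is a stretch of letters and not a measured site.

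Windows of 4 of the 7 genes called higher with BAPTA-AM are printed to show where the cores lie, with a window of Ldha that holds 5 matches. They were picked after the values were seen. Sequences run 5′ to 3′ on the gene's strand in lower case, with cores in capitals as read on that strand, CACGT and CACGC being the reverse complements. Slc2a1 (chr4:119108495-119108794, plus strand) and Slc16a3 (chr11:120948817-120949116, plus strand) hold 2 matches each, Egln3 (chr12:54203825-54204124, minus strand) 1 and Bnip3 (chr7:138909457-138909756, minus strand) 4. The printed Ldha window (chr7:46845554-46845853, plus strand) holds CACGTG at 2 of its matches and that of Bnip3 at 1. Ldha has a further window (chr7:46846832-46847131) with 2 matches and no CACGTG, and the window with more matches is printed.
Slc2a1: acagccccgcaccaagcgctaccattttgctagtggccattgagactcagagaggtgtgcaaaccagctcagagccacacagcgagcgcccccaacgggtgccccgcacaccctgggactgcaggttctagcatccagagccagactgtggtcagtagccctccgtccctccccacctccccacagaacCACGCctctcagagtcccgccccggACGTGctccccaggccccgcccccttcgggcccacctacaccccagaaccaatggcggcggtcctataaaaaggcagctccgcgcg
Slc16a3: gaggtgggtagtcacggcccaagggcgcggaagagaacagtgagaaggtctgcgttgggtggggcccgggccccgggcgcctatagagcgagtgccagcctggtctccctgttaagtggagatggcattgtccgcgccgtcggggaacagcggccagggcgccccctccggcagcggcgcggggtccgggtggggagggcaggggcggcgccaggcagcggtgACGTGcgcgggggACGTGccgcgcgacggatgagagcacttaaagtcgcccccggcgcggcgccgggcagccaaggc
Egln3: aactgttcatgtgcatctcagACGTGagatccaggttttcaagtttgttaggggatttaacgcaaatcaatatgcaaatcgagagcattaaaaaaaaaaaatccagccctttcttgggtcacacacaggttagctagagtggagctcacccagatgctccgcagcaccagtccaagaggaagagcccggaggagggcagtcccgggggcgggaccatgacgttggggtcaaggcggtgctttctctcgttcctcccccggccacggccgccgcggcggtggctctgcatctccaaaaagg
Bnip3: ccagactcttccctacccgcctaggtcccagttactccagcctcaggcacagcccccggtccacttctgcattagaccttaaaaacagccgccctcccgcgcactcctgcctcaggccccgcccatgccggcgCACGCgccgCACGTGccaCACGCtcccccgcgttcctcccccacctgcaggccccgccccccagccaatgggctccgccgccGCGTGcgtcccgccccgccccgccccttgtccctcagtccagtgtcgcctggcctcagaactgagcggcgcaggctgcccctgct
Ldha: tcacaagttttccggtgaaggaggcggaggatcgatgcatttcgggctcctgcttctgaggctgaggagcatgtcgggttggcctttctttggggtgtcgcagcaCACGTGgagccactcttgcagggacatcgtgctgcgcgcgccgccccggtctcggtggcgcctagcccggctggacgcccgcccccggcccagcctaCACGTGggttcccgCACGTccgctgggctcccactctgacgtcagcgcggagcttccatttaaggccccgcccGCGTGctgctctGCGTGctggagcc
The cores of Slc2a1 and Slc16a3 lie within the 3′ part of the window, near the start of transcription, and that of Egln3 near its 5′ end. Slc2a1, Slc16a3, Egln3 and Bnip3 had the called rises with BAPTA-AM given above (log2 fold change 0.93, 0.68, 1.08 and 0.80), while Ldha was not called with all libraries (0.25).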

How the data were processed

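RNA-seq of 20 BMDM libraries was analysed in 5 groups taken from the GEO labels. The deposited values are raw read counts per gene: the authors trimmed reads with cutadapt, aligned them with STAR to mm10 and counted them with HTSeq, with FastQC and MultiQC as quality checks, and versions are not given in the sources used here. Genes were kept by filterByExpr and fitted in R 4.3.3 with edgeR 4.0.16 (TMM scaling, quasi-likelihood test, 1 coefficient per group over all 20 libraries, Benjamini-Hochberg adjusted p under 0.05). TMM scaling assumes that most genes do not change. Normalized counts are TMM-scaled counts at the mean library size of 20.6 M. The 6 contrasts share groups: BAPTA-AM and Mcu-/- with zymosan are both set against the same WT zymosan libraries. Replicates are labelled biological, and the precision of low genes is limited by depth. The columns of the Mcu-/- zymosan libraries are numbered 3 to 5 and their titles 1 to 3, so they are named by column number. The fit was tested on simulated counts with the same low spread in every library and genes changed only in the Mcu-/- zymosan group. That simulation had no outlying library and no change with zymosan in WT, so it does not cover these features of the data. Alternatives were DESeq2 1.42.0 size factors and test, no low-count filter, groups of the contrast alone, a replicate block and each library left out. All 40 genes are named, and every library of the groups compared is given for the 3 with the largest called change per contrast and, for zymosan in WT, Gapdh, or its range where already given. The values or ranges of single groups given for Pkm, G6pdx, Taldo1 and Vegfa were chosen after they were seen. Members and lists were chosen with earlier results of these data known. Promoters came from RefSeq (GRCm38.p6) and gene positions and exon lengths from GENCODE M21.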

Additional observations from a re-analysis of the deposited data

Results flagged for a closer look

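Some libraries lay far from the others of their group by Dixon's test, which chance alone passes in about 1 in 20 groups. In WT macrophages with zymosan, replicate 1 was high for Pfkl (1897 normalized counts, others 1619 to 1690) and replicate 5 for Ldhb (81.2, others 61.1 to 64.0). In the same group, replicate 4 was low for Aldoa (25573, others 26516 to 26683) and for Vegfa (228, others 267 to 279).

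Untreated Mcu-/- replicate 4 was high for 22 of the 40 genes and low for 1. The share of all genes tested that passes Dixon's test in this library was not computed. Because the library stood apart over all genes, the count is not read as a trait of these 40. Among the carriers it was high for Slc2a1 (2488 normalized counts), Slc2a3 (248), Slc16a1 (348) and Slc16a3 (1837). Among the enzymes up to triose phosphate isomerase it was high for Hk3 (10586), Pfkl (2490), Pfkp (2448), Pfkfb3 (5613), Aldoa (39771) and Tpi1 (10048). Among those from Gapdh on it was high for Gapdh (38015), Pgk1 (18241), Pgam1 (5654), Eno1 (20964), Pkm (67274) and Ldha (23241), and low for Ldhb (57.3, others 112 to 123). The remaining genes were Pgm2 (1252), Pgd (11339), Taldo1 (10404), Egln3 (188), Bnip3 (1246) and Vegfa (920). Vegfa in this library was above all other untreated libraries, while zymosan lowered it in both genotypes.

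The response to zymosan differed between Mcu-/- and WT macrophages in the interaction test for 19 genes, given here as the log2 response in Mcu-/- minus that in WT. It was more positive for Adm (2.03), Egln3 (1.84), Slc16a1 (1.17), Slc16a3 (0.87), Slc2a3 (0.75), Eno1 (0.64), Pfkl (0.62), Pgd (0.62), Aldoa (0.56), Rpe (0.30), Egln1 (0.29) and Gpi1 (0.25). It was more negative for Pfkfb3 (-0.66), G6pdx (-0.61), Slc2a6 (-0.56), Tkt (-0.46), Hk2 (-0.36), Hk1 (-0.25) and Pgm1 (-0.21). All 19 were also called without untreated Mcu-/- replicate 4, but Gpi1, Eno1, Pgm1, Aldoa, Hk2, Slc16a3 and Pfkl lost the call in 6 to 20 of the 24 alternatives.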

How the results depend on the processing

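No called gene changed direction under any alternative, but no alternative scaled by total counts alone. The TMM factors were 1.22 to 1.24 in untreated WT libraries and 0.865 to 0.881 in WT libraries with zymosan. Whether the small changes with zymosan keep their direction without these factors was not tested. The groups of the contrast alone gave 19 genes higher and 7 lower with BAPTA-AM, against 7 and 2. They gave 3 genes lower with zymosan in Mcu-/- macrophages, against 6, and 7 with a more positive genotype difference, against 12. With each library left out in turn, BAPTA-AM gave 4 to 18 higher and 1 to 7 lower (18 and 7 without untreated Mcu-/- replicate 4, otherwise at most 7 and 2). The lower count was 1 without any WT zymosan or BAPTA-AM library. The genotype difference gave 7 to 22 more positive and 5 to 9 more negative, and Mcu-/- against WT with zymosan 20 to 22 higher and 7 to 11 lower. Zymosan gave 21 to 30 higher and 6 to 7 lower in WT macrophages and 26 to 28 higher and 6 to 7 lower in Mcu-/- macrophages. Calls held under every alternative for 26 of 29 genes with zymosan in WT, 5 of 9 with BAPTA-AM, 27 of 30 in Mcu-/- against WT with zymosan, 6 of 33 with zymosan in Mcu-/- and 12 of 19 for the genotype difference. The cause was not tested.

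Replicate numbers showed no clear pairing, as same-numbered libraries deviated together with correlations of only -0.055 to 0.059. With 2 to 4 pairs per comparison, and Mcu-/- zymosan numbers that differ between columns and titles, the check cannot exclude a pairing. With a replicate block, BAPTA-AM gave 18 genes higher and 5 lower, and zymosan in Mcu-/- macrophages, where 2 numbers are shared, 4 higher and 2 lower. That block fit uses fewer libraries, and on the same libraries without the block 8 genes were called in all. Libraries correlated best with their own number in 3 of 4 pairs for zymosan in WT and 1 of 4 for BAPTA-AM. For Mcu-/- against WT these were 2 of 3 with zymosan and 0 of 4 untreated, and for zymosan in Mcu-/- 1 of 2. The genotype difference had no block fit.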
